A study of Mus musculus with 5 samples.

Results

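The genes described here are 10 components of TGF-beta, Nodal and SMAD signalling, namely *Nodal*, *Lefty1*, *Lefty2*, *Tgfbr1*, *Smad2*, *Smad3*, *Smad4*, *Smad7*, *Skil* and *Id1*. They were examined in 3 lists of ChIP-seq peaks from mouse embryonic stem cells (mESCs), 1 library per list. A peak was assigned to a gene where its summit lay in the gene body or within 20 kb of it, and 241 of the 291776 peaks in the lists met this rule: 89 of 96050 for REX1, 94 of 97602 for RNF12 WT and 58 of 98124 for its catalytic mutant, RNF12 H569A,C572A. All libraries came from female mESCs of the 129/Sv-Cast/Ei cross and were immunoprecipitated with a V5 antibody. The REX1 library is labelled as wild-type cells carrying FLAG-V5-REX1. Both RNF12 libraries came from *Rlim*+/- cells, which keep an intact copy of the gene for RNF12, with a FLAG-V5-RNF12 transgene driven by the CAG promoter, either wild type or with the H569A and C572A substitutions of the catalytic RING domain. Transgenic protein was therefore measured, and the number of cell clones behind each library is not given in the sources used here. The RNF12 cells had been treated with the proteasome inhibitor MG132 before fixation. The ChIP-seq methods of the study describe this treatment for the RNF12 cells, and the study credits REX1 occupancy in mESCs to earlier work. Between the REX1 and RNF12 lists, a difference in protein cannot be told apart from one in genotype or experiment. The study asked where RNF12 and its substrate REX1 meet on chromatin.

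TGF-beta family ligands bind pairs of serine/threonine kinase receptors, and the type I receptors, such as the product of *Tgfbr1*, phosphorylate SMAD2 and SMAD3. These join SMAD4, enter the nucleus and bind DNA with partners such as FOXH1. Nodal is the ligand of this branch in the early embryo, LEFTY1 and LEFTY2 are secreted antagonists of Nodal, SMAD7 blocks the receptor step, and SKIL (SnoN) represses transcription at SMAD sites. *Id1* is a classical target of the related BMP branch, which helps to hold mESCs in the undifferentiated state. RNF12 is a ubiquitin ligase that marks REX1 for degradation and has also been linked to the turnover of SMAD7. REX1 is a zinc-finger factor related to YY1.

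The sequences around 8 summits that the results turn on are shown first, because they hold the highest REX1 peaks of *Nodal*, *Skil* and *Smad3*, 3 of the summits with a word of the REX1 motif and the only summit with a FOXH1 word. They come from the plus strand of GRCm38 (mm10), run up to 50 bp to either side of the summit and stop before annotated exons. Capitals mark a word of the REX1 motif on either strand or, at the *Nodal* intron, the FOXH1 word AATCCACA.
*Nodal* promoter, REX1, chr10:61417876-61417971: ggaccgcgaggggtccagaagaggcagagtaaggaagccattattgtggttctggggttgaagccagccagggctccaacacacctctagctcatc
*Nodal* downstream, REX1, chr10:61440474-61440574: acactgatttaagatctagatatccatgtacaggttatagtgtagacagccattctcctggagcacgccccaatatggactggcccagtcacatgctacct
*Nodal* intron, RNF12 H569A,C572A, chr10:61419228-61419328: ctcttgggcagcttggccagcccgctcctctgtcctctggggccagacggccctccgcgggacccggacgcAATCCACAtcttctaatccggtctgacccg
*Skil* promoter, REX1, chr3:31094118-31094218: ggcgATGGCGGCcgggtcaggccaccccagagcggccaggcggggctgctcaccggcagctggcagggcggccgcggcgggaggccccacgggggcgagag
*Skil* downstream, REX1, chr3:31134491-31134591: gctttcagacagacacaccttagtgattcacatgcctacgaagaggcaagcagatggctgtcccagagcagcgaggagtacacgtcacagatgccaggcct
*Smad3* intron, REX1, chr9:63734969-63735069: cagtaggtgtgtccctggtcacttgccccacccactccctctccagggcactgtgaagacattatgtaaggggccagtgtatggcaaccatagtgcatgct
*Lefty2* downstream, REX1, chr1:180912717-180912817: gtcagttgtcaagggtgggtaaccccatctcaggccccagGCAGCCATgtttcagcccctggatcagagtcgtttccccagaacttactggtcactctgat
*Tgfbr1* intron, REX1, chr4:47399143-47399243: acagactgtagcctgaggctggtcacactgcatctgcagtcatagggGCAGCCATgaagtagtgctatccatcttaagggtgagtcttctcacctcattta

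In the REX1 peak of the *Skil* promoter the word ATGGCGGC began 46 bp before the summit. GCAGCCAT, the reverse complement of ATGGCTGC, began 10 bp before the summit downstream of *Lefty2*. In *Tgfbr1* it began 3 bp before the summit and covered it. Neither the *Skil* downstream peak, the highest REX1 peak of the 10 genes, nor the REX1 peaks shown for *Nodal* and *Smad3* held a REX1 word within 50 bp of the summit.

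All 10 genes had a promoter peak, defined as a summit within 1 kb of an annotated transcription start site (TSS) of the gene, in each of the 3 lists. Among 21755 protein-coding genes the share with a promoter peak was 67.5% for REX1, 68.9% for RNF12 WT and 67.7% for the mutant. In 9 of the 10 genes a REX1 promoter peak overlapped peaks of both RNF12 lists, against 56.1% of protein-coding genes, and the exception was *Lefty1*. With TSSs of protein-coding transcripts alone, promoter peaks were found for 9 genes with REX1, 10 with RNF12 WT and 8 with the mutant. The numbers of promoter peaks were 31 for REX1, 26 for RNF12 WT and 21 for the mutant. Distal peaks, with summits over 1 kb from every TSS, numbered 53, 57 and 30, and a further 5, 11 and 7 lay at promoters of neighbouring genes. The order of the lists in these counts depended on the cut-off: among peaks with a −log10 q of at least 5, REX1 had 54 peaks, RNF12 WT 44 and the mutant 48, of which 30, 23 and 23 were distal. At least 1 distal peak was found for 9 of the 10 genes with REX1 (74% of protein-coding genes), 9 with RNF12 WT (73.4%) and 8 with RNF12 H569A,C572A (79.8%). *Smad2* had no distal REX1 peak, *Skil* had no distal RNF12 WT peak, and *Smad2* and *Tgfbr1* had no distal RNF12 H569A,C572A peak.

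**Figure D1:**
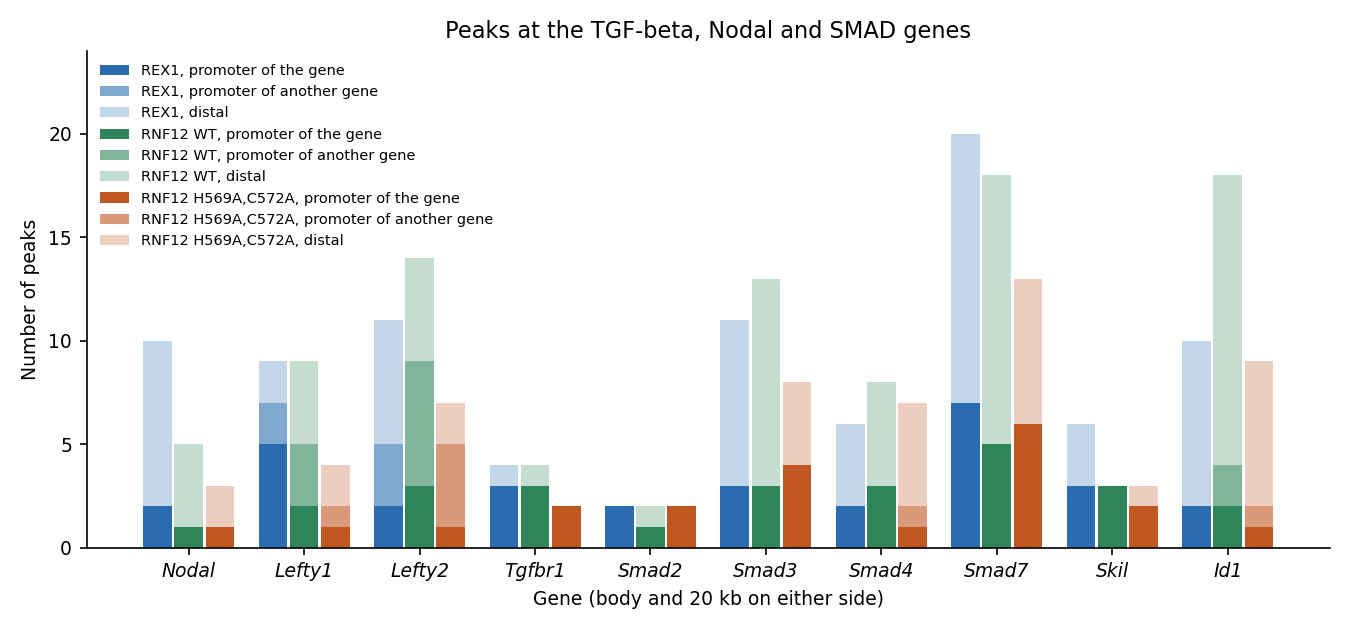
Number of peaks (vertical axis) per gene (horizontal axis, gene body and 20 kb to either side) in the REX1 (blue), RNF12 WT (green) and RNF12 H569A,C572A (orange) lists; the darkest part of each bar counts promoter peaks of the gene, the middle shade promoters of neighbouring genes and the palest part distal peaks. *Smad7* holds 20, 18 and 13 peaks and *Id1* 10, 18 and 9, whereas *Smad2* holds 2 in each list.

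The 10 windows together covered 776841 bp and held 11.5 REX1, 12.1 RNF12 WT and 7.47 RNF12 H569A,C572A peaks per 100 kb. The windows of all protein-coding genes, built in the same way, held 5.4, 5.63 and 4.76 peaks per 100 kb. The genes differed widely. *Smad7* had 29.2 REX1 peaks per 100 kb, more than 95.6% of protein-coding genes, and *Id1* had 43.7 RNF12 WT peaks per 100 kb, more than 98.5% of them. *Smad2* had 1.83 peaks per 100 kb in each list, more than only 19.9%, 19.3% and 15.5% of protein-coding genes.

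The lists hold no read counts, so library depth is unknown. The fold enrichment deposited for each peak is a ratio to the control, with a median of 4.47 in the REX1 list, 4.59 in the RNF12 WT list and 6.83 in the RNF12 H569A,C572A list, so fold enrichments were not compared between lists. Each peak was instead given its percentile of fold enrichment within its own list, where 100 is the highest. With 1 library per list no difference between lists has a replicate check, and the 95% Wilson intervals below cover counting error only.

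Of the 241 peaks, the 32 bases at the summit occurred once in the genome for 85 of 89 REX1, 93 of 94 RNF12 WT and 48 of 58 mutant peaks. The repeated words of the mutant list include the highest distal peak of that list, in *Smad4*.

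At the promoters, 32 separate sites were formed by joining overlapping peaks of any list, and 13 of them (40.6%, 95% interval 25.5% to 57.7%) held peaks of all 3 lists. Over the whole lists 33.5% of promoter sites did. REX1 alone accounted for 7 sites in 4 genes, RNF12 WT alone for 5 sites in 5 genes and RNF12 H569A,C572A alone for 2. These were 21.9%, 15.6% and 6.25% of the sites. Over the whole lists the shares were 19.8%, 15.6% and 12.3%, each within the counting interval. The median percentile of the promoter peaks was 55.7 for REX1, 50.8 for RNF12 WT and 75.6 for the mutant, against 52.2, 55.4 and 61.7 for all peaks within 1 kb of a TSS in the same list. With the list cut to a −log10 q of at least 5 and ranked anew, the REX1 median was 36.7. At the 13 shared sites the highest percentile was that of RNF12 H569A,C572A in 7, of RNF12 WT in 4 and of REX1 in 2, and REX1 was the lowest in 8. Over all 15454 promoter sites shared by the lists these shares were 32.5%, 37.5% and 29.5%, with REX1 lowest in 41.7%. *Smad7* gave 4 of the 13 sites and *Tgfbr1* 2. When each gene was instead counted once by its highest promoter peak in each list, the mutant ranked highest in 4 of the 10 genes, RNF12 WT in 3 and REX1 in 3, against 26.9%, 41.4% and 31.7% of the 13204 genes with promoter peaks in all 3 lists. Taking the highest peak of each list at each of the 13 sites, the mutant ranged from 67.2 to 96.1, REX1 from 3.9 to 88.0 and RNF12 WT from 9.1 to 98.4.

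**Figure D2:**
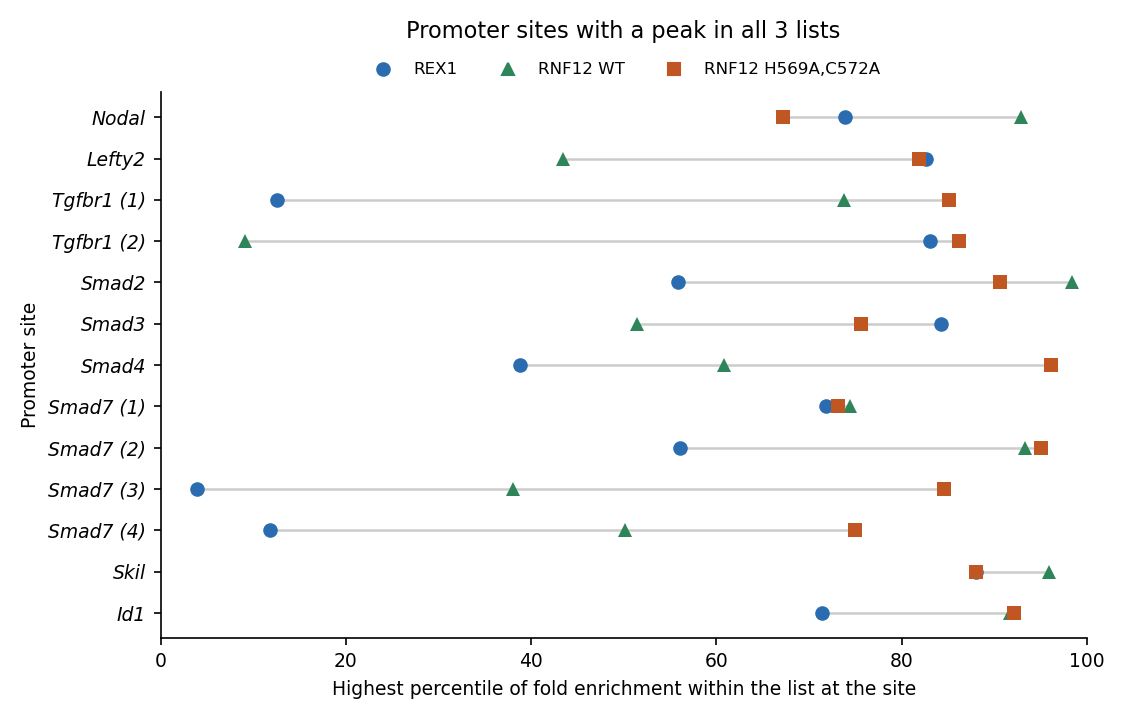
Highest percentile of fold enrichment within the list (horizontal axis) at each of the 13 promoter sites with a peak in all 3 lists (rows, numbered along the chromosome where a gene has several); circles show REX1, triangles RNF12 WT and squares RNF12 H569A,C572A, 1 library each. The squares lie between 67.2 and 96.1, and at *Smad4* the circle lies at 38.8 and the square at 96.1.

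*Nodal*, the ligand, lies at chr10:61417972-61425338 on the plus strand with 1 annotated TSS, and had 10 REX1, 5 RNF12 WT and 3 RNF12 H569A,C572A peaks. With a −log10 q of at least 5 the counts were 7, 2 and 3. The promoter site shared by the lists fell in the first exon. REX1 peaked 404 bp after the TSS with a fold enrichment of 5.51 (percentile 73.9), RNF12 H569A,C572A at 432 bp with 8.77 (67.2) and RNF12 WT at 453 bp with 6.98 (92.9). All 3 proteins thus had a summit within the same stretch, which ranked highest in the RNF12 WT list. A REX1 peak without overlap in either RNF12 list stood 46 bp before the TSS, with a fold enrichment of 6.74 (87.4), and 2 more lay 1405 bp (66.6) and 2152 bp (73.8) upstream. In the first intron, RNF12 H569A,C572A had a peak 1306 bp after the TSS with a fold enrichment of 11.6 (79.9), where RNF12 WT reached only percentile 14.0 and REX1 had no overlapping peak. An enhancer in this intron that responds to FOXH1 and SMAD2 is known as background, and whether the peak lies in it was not checked. The only FOXH1 word within 50 bp of any of the 241 summits was here, 21 bp after the mutant summit. The word begins at 61419299, and the window of the RNF12 WT summit of this site ended at 61419296, just short of it. The highest peak of the gene was a REX1 peak 15186 bp beyond its 3′ end, inside an intron of *Eif4ebp2*, at a fold enrichment of 11.7 (98.1), with no RNF12 peak. The other distal mutant peak of *Nodal*, 3724 bp upstream (54.1), lay on a word that occurs 25972 times. The RNF12 WT list held 3070 peaks on the whole of chromosome 10, against 4554 for REX1 and 4672 for RNF12 H569A,C572A. The part of this in the counts at *Nodal* was not tested.

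The Nodal antagonists *Lefty1* (chr1:180935022-180938400) and *Lefty2* (chr1:180893108-180899103) are neighbours on the plus strand, and differed from each other. *Lefty2* had a promoter site in all 3 lists, at a TSS annotated inside the gene. There REX1 peaked 66 bp before the TSS with a fold enrichment of 6.13 (82.6), RNF12 H569A,C572A 30 bp before it with 12.2 (81.9) and RNF12 WT 77 bp before it with 4.43 (43.5). REX1 and the mutant thus ranked alike, and RNF12 WT lower. The other RNF12 WT promoter peaks of *Lefty2* stood at 28.6, in the same site, and at 26.8, alone. *Lefty1* had no promoter site with all 3 lists. Its 5 REX1 promoter peaks stood at percentiles 21.7, 46.1, 47.2, 43.1 and 71.4, its 2 RNF12 WT promoter peaks stood at 21.8 and 53.5, and its single RNF12 H569A,C572A promoter peak stood at 20.8. The REX1 and mutant summits of *Lefty1* at 174 and 183 bp from an internal TSS lie in a coding stretch whose 32 bases occur 2 times in the genome, the other copy being in *Lefty2*. The same holds in reverse for the REX1 summit 240 bp after the internal TSS of *Lefty2* (46.1), and the part of this in the peaks was not tested. Promoters of other genes in the windows of the pair are counted separately.

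Away from the promoters, the highest peaks of this pair were an RNF12 WT peak 7449 bp upstream of *Lefty1* with a fold enrichment of 6.54 (89.4), a pair of REX1 peaks 12889 and 13664 bp beyond the end of *Lefty2* (81.3 and 80.8), and an RNF12 WT peak in a coding exon of *Lefty2* with a fold enrichment of 5.86 (80.5). The first 3 overlapped no peak of another list. The RNF12 H569A,C572A distal peaks of both genes were low in their list, between percentiles 7.6 and 33.9, and the summit word of the highest of them occurs 9046 times in the genome.

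*Tgfbr1*, the type I receptor for TGF-beta, lies at chr4:47353222-47414931 on the plus strand, and nearly all of its 10 peaks were at the promoter: 3 of 4 for REX1, 3 of 4 for RNF12 WT and 2 of 2 for RNF12 H569A,C572A. It had a pair of shared sites on either side of the TSS at which the lists ranked in different order. Upstream, between 230 and 342 bp before the TSS, the percentiles were 12.6 for REX1 (fold enrichment 3.31), 73.8 for RNF12 WT (5.54) and 85.1 for the mutant (13.3). Across the start of the gene they were 83.1 for REX1 (6.2), 9.1 for RNF12 WT (3.07) and 86.2 for the mutant (13.7). REX1 and RNF12 WT thus each had 1 high site and 1 low site, and the mutant was high at both. The other promoter peaks were a REX1 peak at 59.0 in the second site and an RNF12 WT peak 764 bp before the TSS at 17.9, alone. The single distal REX1 peak, in an intron, had a fold enrichment of 5.57 (75.2) and held the REX1 word GCAGCCAT.

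*Smad2* and *Smad3* encode the SMADs that these receptors phosphorylate. *Smad2* (chr18:76241580-76310963, plus strand) had only 6 peaks, 5 of them at the promoter. At the shared site the RNF12 WT peak, 27 bp before the TSS with a fold enrichment of 8.74 (98.4), was the highest promoter peak of any of the 10 genes in that list. RNF12 H569A,C572A peaked 147 bp before the TSS with 15.9 (90.6), and the REX1 peaks there had fold enrichments of 3.97 (32.8) and 4.7 (55.9). RNF12 in both forms thus ranked above percentile 90 at this site and REX1 near the middle or below. A second mutant promoter peak (84.8) lay in an intron and overlapped no other peak.

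*Smad3* (chr9:63646767-63757994, minus strand) had the reverse order, with REX1 highest. At its shared promoter site, REX1 peaked 80 bp before the TSS with a fold enrichment of 6.37 (84.3), RNF12 H569A,C572A 238 bp before it with 10.4 (75.6) and RNF12 WT 84 bp before it with 4.68 (51.4). Further peaks of this site, after the TSS, stood at 50.9 for REX1, 30.0 for RNF12 WT and 73.8 for the mutant. A neighbouring intronic site held REX1 (56.4) and mutant peaks (52.1 and 9.8), and an RNF12 WT peak (48.3) stood alone near an internal TSS. In its body of 111228 bp and the 20 kb to either side *Smad3* also had 8 REX1, 10 RNF12 WT and 4 RNF12 H569A,C572A distal peaks, of which 1 site in an intron was in all 3 lists (46.5, 75.3 and 24.5). The highest distal peak was REX1 alone, 22975 bp into the gene in an intron, with a fold enrichment of 7.91 (92.7). The highest RNF12 WT peak, 1347 bp before the TSS with 6.51 (89.2), was also alone. A pair of the 4 distal mutant peaks, both outside the gene, lay on summit words that occur 38 and 8 times.

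*Smad4*, the common partner of the receptor-regulated SMADs, lies at chr18:73639009-73703780 on the minus strand. Its shared promoter site ranked high in the mutant list, near the middle for RNF12 WT and lower for REX1. RNF12 H569A,C572A peaked 128 bp before the TSS with a fold enrichment of 21.1 (96.1), the highest promoter peak of that list among the 10 genes. RNF12 WT peaked 68 bp before it with 4.99 (60.8) and REX1 217 bp before it with 4.17 (38.8). Weaker peaks of this site, in an intron, stood at 29.3 for REX1 and 17.9 for RNF12 WT. Its highest RNF12 WT promoter peak, with a fold enrichment of 6 (82.9), lay in a coding exon 61 bp after an internal TSS and overlapped no other peak. A second high mutant peak, with a fold enrichment of 19.2 (94.6), lay in an intron 16391 bp into the gene and overlapped a REX1 peak (59.0), but the 32 bases at the mutant summit occur 2351 times in the genome and those at the REX1 summit 1983 times. A further intronic site with all 3 lists lay in a tandem repeat within *Smad4*, whose summit words occur 3 or 4 times, and it ranked low (6.2, 0.3 and 39.7). Of the distal *Smad4* sites with all 3 lists, only that 15732 bp beyond the 3′ end had single-copy summit words, with percentiles of 81.3 for REX1, 53.5 for RNF12 WT and 84.2 for the mutant.

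*Smad7*, the inhibitory SMAD, lies at chr18:75367529-75395935 on the plus strand and had the most peaks of the 10 genes over the 3 lists together: 20 REX1, 18 RNF12 WT and 13 RNF12 H569A,C572A. It held 4 of the 13 shared promoter sites. Just before the TSS the 3 summits lay 121 to 124 bp upstream. There RNF12 H569A,C572A had a fold enrichment of 19.7 (95.1), RNF12 WT of 7.08 (93.3) and REX1 of 4.7 (56.1). Both forms of RNF12 ranked high at this site and REX1 near the middle. Upstream, in a site that also covers the start of the non-coding gene *Gm20544*, the lists ranked alike at 71.8, 74.4 and 73.1. At a pair of internal TSSs, the REX1 peaks were low in their list (3.9 and 11.8), RNF12 WT stood at 38.1 and 50.1, and the mutant at 84.6 and 75.0. REX1 was not low at every internal TSS: 581 bp before and 765 bp after another TSS it had peaks at 55.7 and 83.6, the latter its highest promoter peak of the gene, and neither overlapped an RNF12 peak. The remaining promoter peaks of *Smad7* were mutant peaks at 63.7, in the upstream site, and 44.1, alone, and, after the TSS in the site first described, RNF12 WT at 6.5 and REX1 at 21.9.

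The distal peaks of *Smad7* included the highest RNF12 WT peak of the 10 genes. It lay 9794 bp beyond the 3′ end with a fold enrichment of 9.39 (99.1) and overlapped a mutant peak of low rank (14.5), with no REX1 peak. The highest distal REX1 peak, in an intron 20001 bp into the gene, had a fold enrichment of 9.36 (95.9) and overlapped an RNF12 WT peak of low rank (16.4). The intronic site 13103 bp into the gene was in all 3 lists, with percentiles of 47.9 for REX1, 92.0 for RNF12 WT and 46.8 for the mutant. Another intronic REX1 peak (81.3) overlapped an RNF12 WT peak (67.3), and the highest mutant distal peak reached 74.1.

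**Figure D3:**
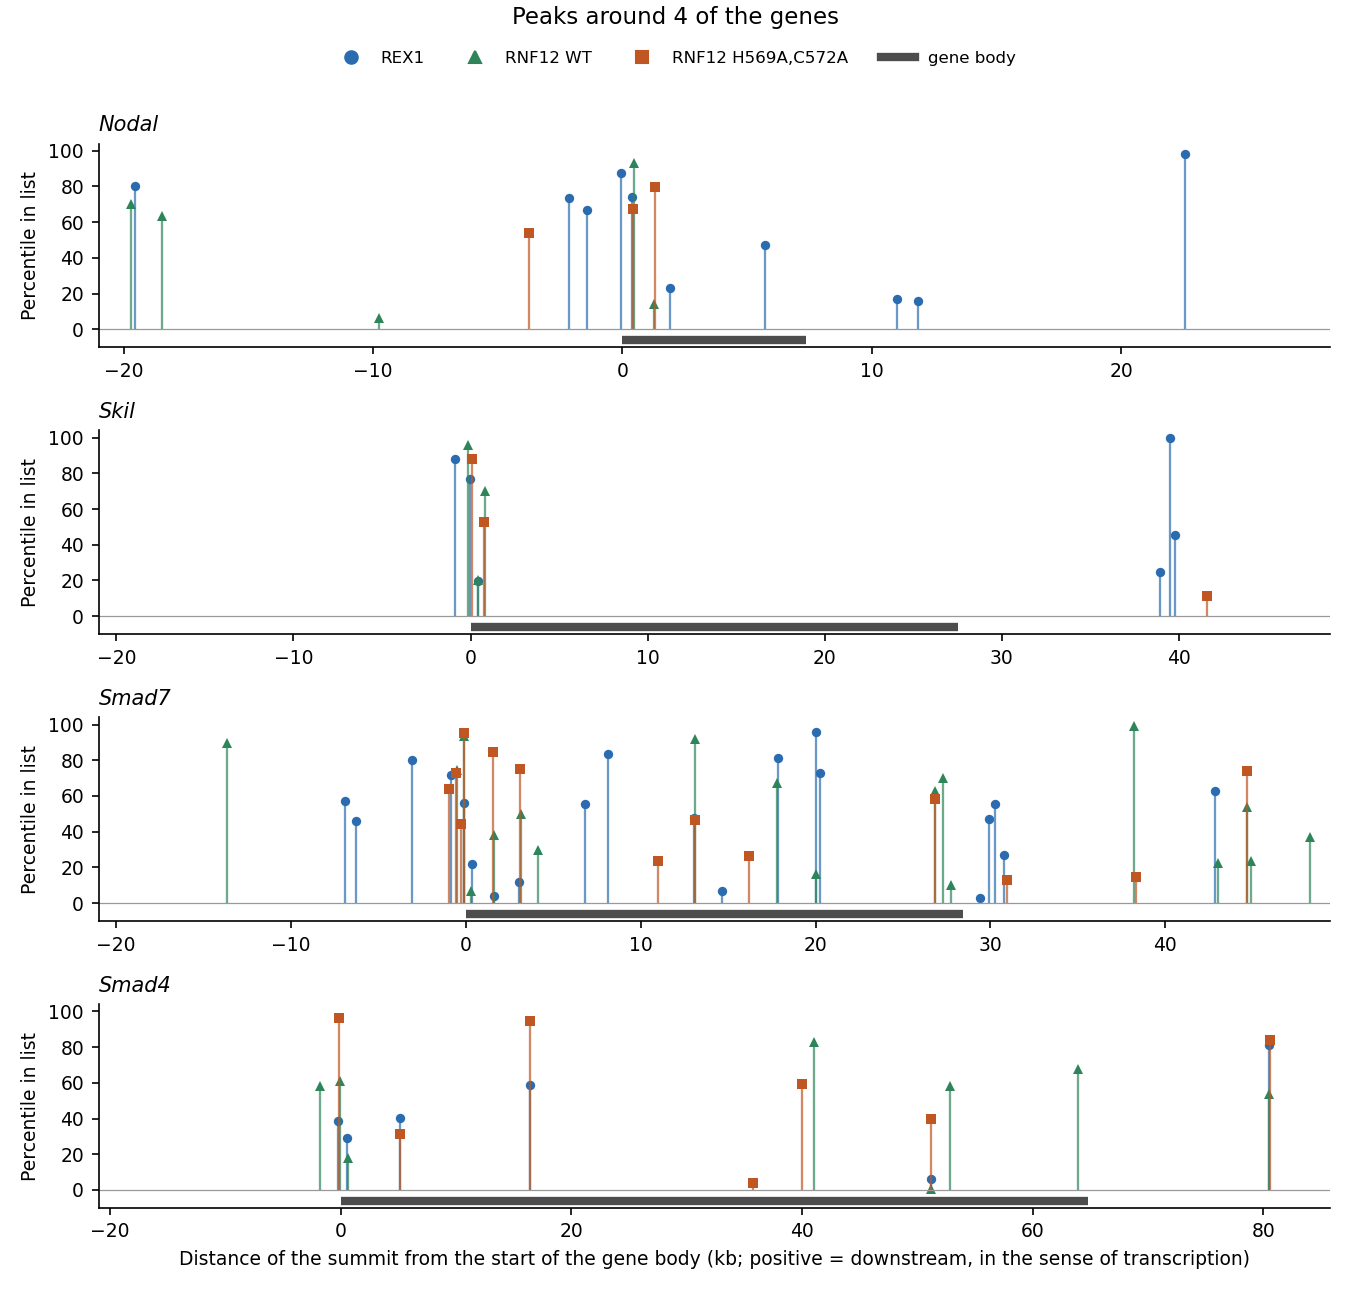
Percentile of fold enrichment within the list (vertical axis) of each peak against the distance of its summit from the start of the gene body (horizontal axis, kb, positive downstream) at *Nodal*, *Skil*, *Smad7* and *Smad4*; circles show REX1, triangles RNF12 WT, squares RNF12 H569A,C572A and grey bars the gene bodies. The high REX1 peaks far downstream of *Nodal* (98.1) and *Skil* (99.6) overlap no RNF12 peak, and the 3 lists meet at the starts of all 4 genes.

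*Skil*, which encodes the corepressor SnoN, lies at chr3:31095058-31122577 on the plus strand. Its shared promoter site held 3 REX1, 2 RNF12 WT and 1 RNF12 H569A,C572A peaks. RNF12 WT peaked 142 bp before the TSS with a fold enrichment of 7.62 (95.9), and the mutant, in a peak of 1650 bp, had 14.6 (88.0) at its summit 15 bp after a TSS. REX1 had its highest promoter peak of the 10 genes 890 bp before the TSS, with 6.89 (88.0), and another 42 bp before it with 5.66 (76.9). The highest peak of each list at this site was thus at percentile 88.0 or above. The third REX1 peak (19.6) and the second RNF12 WT peak (20.0) of the site, in an intron, were low. A further promoter site without REX1 held RNF12 WT at 70.2 and the mutant at 52.5. The REX1 peak 11964 bp beyond the 3′ end was the highest of all 89 REX1 peaks, with a fold enrichment of 17.4 and percentile 99.6, which placed it at rank 393 of the 96050 REX1 peaks. It overlapped no RNF12 peak, and 2 weaker REX1 peaks (25.0 and 45.7) flanked it. The only distal mutant peak, 14064 bp beyond the 3′ end, was low (11.2) and lay on a word that occurs 3 times there.

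*Id1*, the BMP target, lies at chr2:152736251-152737410 on the plus strand with 1 annotated TSS. The shared promoter site lay in a coding exon, where RNF12 H569A,C572A peaked 214 bp after the TSS with a fold enrichment of 17 (92.1), RNF12 WT 184 bp after it with 6.76 (91.7) and REX1 132 bp after it with 5.31 (71.4). The other promoter peaks, each without overlap, were an RNF12 WT peak 777 bp after the TSS (89.7) and a REX1 peak 877 bp after it (52.2). RNF12 WT had 14 distal peaks here, more than at any other of the 10 genes (13 at *Smad7*), against 8 for REX1 and 7 for the mutant. With 5 kb windows *Id1* had 6 REX1, 7 RNF12 WT and 4 mutant peaks of all classes. With a −log10 q of at least 5 it had 6, 10 and 9. A pair of sites 8962 to 12296 bp upstream were in all 3 lists. In the farther one the percentiles were 46.1 for REX1, 86.8 for RNF12 WT and 40.0 for the mutant, and in the nearer one 82.7, 78.6 and 15.2. The highest distal peaks were those of REX1 17998 bp upstream (fold enrichment 7.29, percentile 90.3) and of RNF12 WT 2966 bp downstream (6.65, also 90.3). The mutant peak 1098 bp upstream had a fold enrichment of 9.29 (70.4) and held the REX1 word ATGGCGAC, where RNF12 WT ranked at 1.8 and REX1 had no peak.

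**Figure D4:**
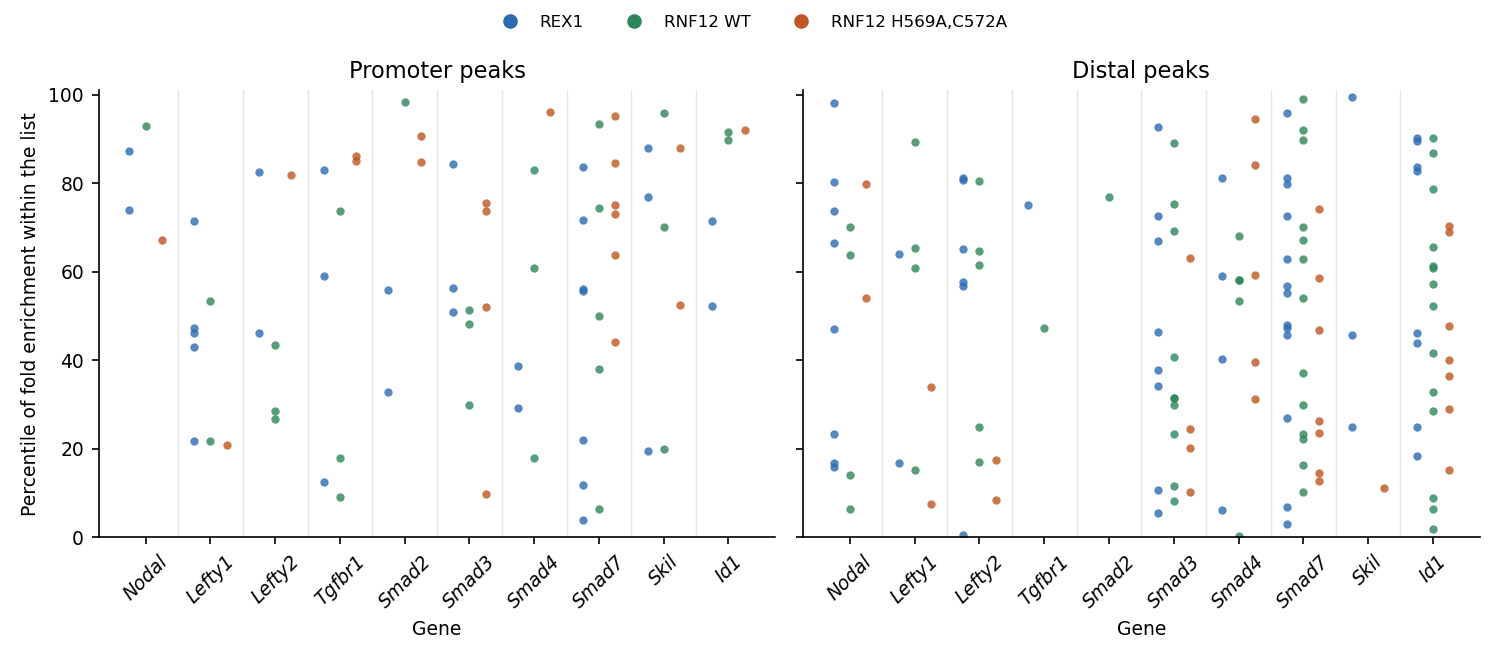
Percentile of fold enrichment within the list (vertical axis) for each promoter peak (left) and each distal peak (right) of the 10 genes, in the order ligand, antagonists, receptor, SMADs, corepressor and target; blue is REX1, green RNF12 WT and orange RNF12 H569A,C572A. The median of the orange points is 75.6 at promoters and 35.1 at distal sites.

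Distal sites were mostly held by a single list. Of 100 distal sites, 35 held REX1 alone, 28 RNF12 WT alone, 8 RNF12 H569A,C572A alone (95% interval 4.11% to 15%) and 6 all 3 lists. Over the whole lists the shares were 27.6%, 21.7%, 29.8% and 6.32%. The share of sites held by the mutant alone was thus below that of the whole lists, which lies outside the interval. The interval treats sites as independent, although they cluster in a few loci. The whole-list shares also cover distal sites far from any gene. In the windows of all protein-coding genes the mutant list was the sparsest, with 4.76 peaks per 100 kb against 5.4 for REX1 and 5.63 for RNF12 WT. The part of this in the low share was not tested. Distal peaks made up 51.7% of the mutant peaks here and 69.2% of that list, against 59.6% and 64% for REX1 and 60.6% and 61.4% for RNF12 WT. The median percentile of the distal peaks was 56.9 for REX1 (49.3 for all distal peaks of the list), 54.0 for RNF12 WT (47.2) and 35.1 for the mutant (45.5). Percentiles above 90 were reached by 5 of 53 distal REX1 peaks, 3 of 57 RNF12 WT peaks and 1 of 30 mutant peaks. The mutant peak is the repeat-borne peak in *Smad4*. Percentile 90 leaves the same share of each whole list above it, and the share of all distal peaks above it was not computed. The counts are therefore not read as an excess. The 5 REX1 peaks lay at *Skil*, *Nodal*, *Smad7*, *Smad3* and *Id1*.

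Overlap between lists, counted at 1 bp or more, depended on the direction in which it was read. Of the 89 REX1 peaks 36 (40.4%, 30.9% to 50.8%) overlapped RNF12 WT and 36 (40.4%) overlapped RNF12 H569A,C572A, where the whole REX1 list gave 39.4% and 40.5%. For REX1 with RNF12 WT the value was 25.9% with a −log10 q of at least 5 (30.9% of the whole list) and 20.2% with an overlap of 50% of both peaks (20.2% of the whole list). Of the 94 RNF12 WT peaks 38 (40.4%) overlapped REX1 and 44 (46.8%) the mutant, against 41.2% and 51.8%. Of the 58 mutant peaks 30 (51.7%, 39.2% to 64.1%) overlapped REX1 and 38 (65.5%, 52.7% to 76.4%) RNF12 WT, against 34.5% and 42.8%. The mutant peaks at these genes thus overlapped the other lists more often than that list as a whole, by more than the counting interval. At the promoters 18 of 21 mutant peaks (85.7%, 65.4% to 95%) overlapped REX1, against 64.1% for promoter peaks of the whole list, and 16 (76.2%, 54.9% to 89.4%) overlapped RNF12 WT, against 72.3%, which lies within the interval. Of the distal mutant peaks 10 of 30 (33.3%, 19.2% to 51.2%) overlapped REX1, against 21.3%, which lies within the interval, and 18 (60%, 42.3% to 75.4%) overlapped RNF12 WT, against 29.8%. The overlap with REX1 was no longer outside the counting interval when only peaks with a −log10 q of at least 5 were used (37.5%, 25.2% to 51.6%, against 27.1%) or when 50% of both peaks had to overlap (22.4%, 13.6% to 34.7%, against 17.5%). Peaks of a locus come from the same libraries and are not independent. The labels name a single RNF12 input for both RNF12 libraries, beside a single REX1 input. Which control served each list in peak calling is not stated in the sources used here.

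The REX1 motif was searched as 6 words, ATGGCGAC, ATGGCGCC, ATGGCGGC, ATGGCTAC, ATGGCTCC and ATGGCTGC, in either orientation (both strands) up to 50 bp from the summits. At least 1 was present at 12 of 89 REX1 peaks (13.5%, 7.88% to 22.1%), 3 of 94 RNF12 WT peaks (3.19%) and 2 of 58 RNF12 H569A,C572A peaks (3.45%). Over the whole lists the shares were 12.8%, 4.68% and 3.59%. The 12 REX1 summits were spread over *Lefty1* (3), *Lefty2* (2), *Skil* (2), *Smad7* (2), *Smad4*, *Nodal* and *Tgfbr1* (1 each), and 5 of them were at promoters. The YY1 core AAGATGGC, which shares the letters ATGGC with the REX1 words, was at 1 REX1 peak, in the repeat in *Smad4*, and at 1 RNF12 WT peak. FOXH1 words (AATCCACA or AATACACA) were at no REX1 or RNF12 WT peak and at 1 mutant peak, the one in *Nodal*, against 0.292%, 0.217% and 0.167% of all peaks. At that *Nodal* site the 50 bp window of the RNF12 WT summit ended just short of the word. The palindromic SMAD element GTCTAGAC was at none of the 241 summits and at 0.0689%, 0.0452% and 0.0237% of all peaks.

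A wider list of 44 other genes of TGF-beta, activin and BMP signalling was examined in the same way. Promoter peaks were found for 43 with REX1, 42 with RNF12 WT and 41 with RNF12 H569A,C572A, and for 39 (88.6%) a REX1 promoter peak overlapped both RNF12 lists. Over all protein-coding genes these shares were 67.5%, 68.9%, 67.7% and 56.1%. All 10 receptors, all 4 other SMADs (*Smad1*, *Smad5*, *Smad6* and *Smad9*) and all 13 regulators and cofactors, such as *Ski*, *Smurf1*, *Bambi* and *Foxh1*, had such a site. Among the 12 ligands and extracellular factors 9 did. *Gdf3*, a ligand of this branch, had promoter peaks of REX1 alone, *Cer1*, an antagonist, of RNF12 WT alone, and *Tgfb3* of REX1 and the mutant. Among the 5 targets 3 had such a site. *Id4* had promoter peaks in each list but no REX1 peak that overlapped both others. The highest values over all 44 genes were at *Rnf111* for RNF12 WT (99.6) and at *Ppm1a*, a phosphatase of SMAD2 and SMAD3, where REX1 stood at 99.3, RNF12 WT at 98.9 and RNF12 H569A,C572A at 99.4.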

How the data were processed

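Per the labels and the study's methods, the authors trimmed reads with Trim Galore 0.6.7, aligned them with Bowtie2 2.5.0 to mm10 with the strains' differing bases masked, split them by allele and merged them again with SAMtools 1.10, and called peaks with MACS2 2.2.7.1. The deposited lists hold 1 library each, with a fold enrichment (a ratio over the local background) and a −log10 q for each peak. The deposited −log10 p was not used, and the 2 control libraries were not analysed here. All lists end at a −log10 q of 1.31, and depth is unknown.

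Peaks were assigned to genes of GENCODE M21 by their summits, within 20 kb of the body, with promoters within 1 kb of any TSS of the gene. Percentiles of fold enrichment were taken within each list. Intervals are 95% Wilson intervals. Sequences come from GRCm38.p6 of RefSeq, within whose lengths all peaks of the numbered, X and Y chromosomes lie. Overlap, distance and window steps were tested on simulated data. The rule named all promoter peaks of the 10 genes, the 3 highest distal peaks of each list and the distal sites in all 3 lists; other distal peaks named were chosen after their values were seen. The genes and lists were chosen with earlier results of these data known. Scripts ran under Python 3.11.15 with pandas 2.3.3, numpy 2.4.6 and matplotlib 3.10.9.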

Additional observations from a re-analysis of the deposited data

How the results depend on the processing

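The counts and shares were recomputed under 126 combinations of a result and an alternative, of which 95 stayed close to the reported value and 31 moved. None moved by over 1.5 times (counts) or out of its interval (shares and medians) with promoters of 3 kb, with TSSs of protein-coding transcripts alone, with ranks by q, or with ranks within a class or chromosome. The 126 leave out the number of peaks at each gene, judged in the same way. Of these numbers 17 moved and 13 stayed close with a −log10 q of at least 5. With 5 kb windows 9 moved and 21 stayed close, and with 50 kb windows 17 and 13. Without peaks on repeated summit words 2 moved and 28 stayed close. At *Smad3* the RNF12 WT count fell from 13 to 4 with the q cut-off. All 10 genes had a promoter peak in each list with a −log10 q of at least 5 or promoters of 3 kb; the number was 9, 10 and 8 for REX1, RNF12 WT and the mutant with protein-coding TSSs, and 9 for the mutant without peaks on repeated summit words. With a −log10 q of at least 5, 54 REX1, 44 RNF12 WT and 48 mutant peaks were left, 30, 23 and 23 of them distal and 17 of RNF12 WT at promoters, so that RNF12 WT no longer had more peaks than the mutant. The median promoter percentile of REX1 was then 36.7, 25.9% of its peaks overlapped RNF12 WT, and 37.5% and 52.1% of the mutant peaks overlapped REX1 and RNF12 WT. With 5 kb windows, RNF12 WT had 60 peaks, and distal peaks numbered 35, 31 and 18 for REX1, RNF12 WT and the mutant. With 50 kb windows the lists had 160, 144 and 89 peaks, 107, 93 and 53 of them distal. An overlap of 50% of both peaks gave 20.2% (RNF12 WT) and 14.6% (mutant) of REX1 peaks, 19.1% (REX1) and 26.6% (mutant) of RNF12 WT peaks, and 22.4% (REX1) and 43.1% (RNF12 WT) of mutant peaks. Summits at most 100 bp apart gave 23.6% of REX1 peaks with the mutant, 29.8% (REX1) and 31.9% (mutant) of RNF12 WT peaks, and 36.2% (REX1) and 51.7% (RNF12 WT) of mutant peaks. Without peaks on repeated summit words, an alternative chosen after seeing the data, 77.1% of mutant peaks overlapped RNF12 WT. The part of fewer or more peaks, of ranking anew or of a stricter match in these moves was not tested. No paired analysis was possible because each list is 1 library and no test was run. Unknown depth and a single library per list mean that a missing peak shows only that none was called.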

Other observations

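The windows of 4 genes also held 14 sites at promoters of other genes. The start of *Tmem63a* was in all 3 lists, where the highest peak stood at percentile 36.1 in the REX1 list, 79.3 in the RNF12 WT list and 58.8 in the mutant list. At *Cox4i2*, downstream of *Id1*, a site with RNF12 WT (52.6) and the mutant (57.6) had no REX1 peak.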
